A study of Arabidopsis thaliana with 24 samples.

Results

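The genes described here had a signal 10-fold higher or more with estradiol in roots of ISH1 plants, and in neither of the other inducible lines. They were selected on these measured responses. A gene entered the set when a probe was well above background on all 6 ISH1 arrays, its response to estradiol in ISH1 was at least 10-fold, and no probe of the gene reached 10-fold in ISH2 or ISH1&2. The response is the mean log2 signal of the arrays with estradiol minus that of the arrays without estradiol of the same line. Of 34290 genes and other names on the array, 25542 were bright on all 6 ISH1 arrays. Of those, 391, or 1.53%, reached 10-fold in ISH1, and 211, or 0.826%, did so in ISH1 alone. The other 180 also reached 10-fold elsewhere, 146 of them in ISH1&2 and 62 in ISH2. Of the 211 genes, 180 were matched to a locus, and 31 stand under an accession or a probe name. AT2G20142, which encodes a TIR-domain protein, is counted under 2 of these names.

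Plants recognise microbes with receptors at the cell surface and with intracellular receptors of the TIR and NBS-LRR type, and both kinds feed into kinase cascades, calcium signals and WRKY transcription factors. Salicylic acid is the hormone of this response in many tissues, and its signal passes through NPR1 and TGA factors to genes such as PR1. Camalexin and indole glucosinolates are antimicrobial compounds of Arabidopsis made from tryptophan, and roots respond to microbial patterns with local defence gene expression. Of the 211 genes, 114 were assigned to none of the families used here, and the account below is ordered by the roles of the other members. Of the others, 10 were of the TIR or NBS-LRR type, 10 were WRKY factors, 5 were cysteine-rich kinases and 4 were receptor-like proteins. For the TIR or NBS-LRR, germin-like, transporter, peroxidase and MYB, NAC, ERF or bHLH groups, the bright genes were not counted. The counts of members in those groups are only a description.

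Roots of Col-0 seedlings from 4 lines were hybridised to 24 Agilent 1-colour arrays. The tested lines carried 1 or more transgenes that estradiol switches on, named ISH1, ISH1&2 and ISH2, and the control line is named only as control. Hygromycin-resistant seedlings of each line were moved after 8 days to plates with or without 5 µM estradiol and harvested at 15 days, with 3 arrays per line and treatment. Nothing in the labels says that the 3 arrays came from separate cultures, so p-values measure only the spread between these arrays. In the estradiol system the activator is under a viral promoter that is active in most cell types. Where in the root the transgenes were expressed was not measured on these arrays. The labels do not say which gene each of the ISH lines carries. The signal of ATHB25 was 3955, 3571 and 3750 in ISH1 with estradiol, against 5.46, 4.13 and 4.18 without it, and that of REM7 was 8288, 6477 and 6507 in ISH2 with estradiol, against 113.5, 104.4 and 89.3 without it. In ISH1&2, ATHB25 was at 1769, 1878 and 2052 with estradiol, against 44.1, 90.9 and 65.6 without it, and REM7 was at 2603, 2613 and 2391 with estradiol, against 2298, 2316 and 2489 without it. The signal of REM7 in ISH1&2 was therefore already high on the arrays without estradiol. REM7 was also higher in ISH1 with estradiol, at 604, 174 and 87.4, against 31.5, 33.0 and 34.0 without it.

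Signals are given relative to the array, with the 75th percentile of all probes on an array set to 100. The share of probes that stood well above background was 90.9% on the ISH1 array without estradiol of replicate 1, and 76.9% to 84.8% on the other arrays. That array read higher for many of the dim members, and the set held 251 genes without it. Each of the 6 slides held the 4 lines of 1 treatment and 1 replicate, so the response to estradiol is a difference between slides, whereas differences between lines lie within slides. The place of each line on the slide was the same throughout, so the line and the place cannot be told apart. In whole roots, fewer cells of a type and less RNA per cell cannot be told apart. All 20 root marker genes were above background in every group. Their summed signal was lower with estradiol in each line, without overlap, at 8420 to 8920 in ISH1 with estradiol, against 10660 to 11560 without it, and at 7877 to 8376 in ISH1&2 with estradiol, against 9341 to 11740 without it. It was 9762 to 10470 in ISH2 with estradiol, against 11270 to 11650 without it, and 9395 to 10470 in control with estradiol, against 10790 to 11990 without it. A sum follows its brighter genes, and single root markers went both ways. The log2 responses in ISH1, ISH1&2 and ISH2 were −0.68, −1.16 and −0.33 for CASP1, and 0.53, 2.59 and 1.70 for WOX5. Over 12 genes of green shoot tissue the summed signal was between 21080 and 22180 in ISH1&2 with estradiol, against 5196 to 6429 without it. In ISH1 this sum was between 3847 and 5026 with estradiol, against 5702 to 6529 without it, and in ISH2 it was between 1113 and 1293 with estradiol, against 5361 to 5842 without it. In control it was between 4287 and 6236 with estradiol, against 4885 to 5935 without it. The part of root and green tissue in the values below was not tested.

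The median response of the 211 genes in ISH1 was 17.4-fold, or 4.12 on the log2 scale, with a range of 3.34 to 7.42. These values chose the genes and are given as a description. Of the 211, 129 lay between 10-fold and 20-fold, 68 between 20-fold and 50-fold and 14 at 50-fold or more, of which 3 exceeded 100-fold. The median signal of the set was 50.7, 49.4 and 51.1 on the ISH1 arrays with estradiol, against 3.52, 2.75 and 2.38 without it. For every member the 3 ISH1 arrays with estradiol lay above the 3 without it. The set was dim at rest. Its median signal on control arrays without estradiol was 2.35, against 39.0 for all genes tested and 1.40 for the 180 genes that also reached 10-fold elsewhere.

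**Figure D1:**
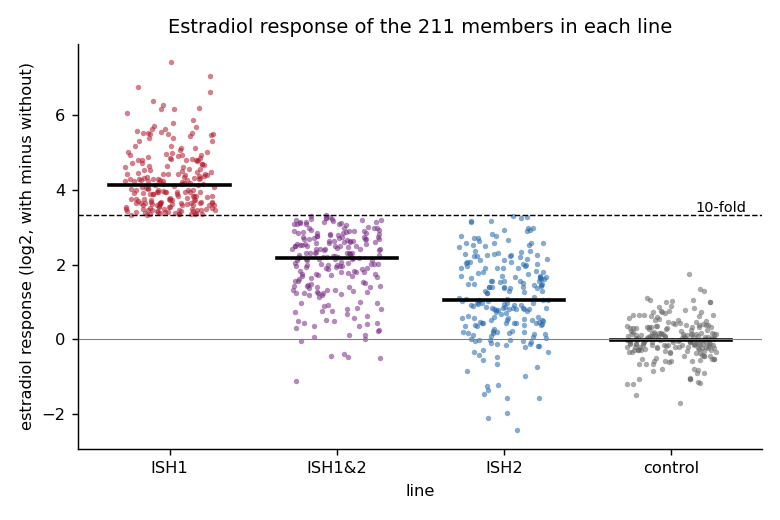
Response to estradiol (log2 of the signal with minus without estradiol) of the 211 members in ISH1, ISH1&2, ISH2 and control. Each point is a gene, black bars are medians and the dashed line is 10-fold. The medians were 4.12, 2.18, 1.04 and −0.01, and points below the dashed line in ISH1&2 and ISH2 and above it in ISH1 follow from the way the genes were chosen.

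In ISH1&2 most members were also higher with estradiol, but by less. The median response there was 4.53-fold, or 2.18 on the log2 scale, with a range of −1.13 to 3.32. By the rule no member could reach 10-fold in this line. Of the 211 genes, 177 were at least 2-fold higher with estradiol in ISH1&2, where 12.7% of all genes tested were, and 88 were at least 5-fold higher, where 5.21% of all genes were. A further 33 lay within 2-fold, and 1 was at least 2-fold lower. The median signal of the set in ISH1&2 was 11.7, 12 and 9.95 with estradiol, against 2.47, 2.99 and 2.95 without it. Between these 2 lines the members differed little without estradiol, with a median of −0.09 on the log2 scale for ISH1&2 minus ISH1, and 200 of 211 lay within 2-fold. With estradiol the median of this difference was −2.30, a direction that the choice of the genes fixes, since the 2 lines differed little without estradiol.

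In ISH2 the median response was 2.05-fold, or 1.04 on the log2 scale, with a range of −2.45 to 3.301. The median signal in ISH2 was 6.77, 6.91 and 6.76 with estradiol, against 3.11, 2.95 and 3.08 without it. In this line 109 members were at least 2-fold higher with estradiol, where 3.99% of all genes tested were, 93 lay within 2-fold and 9 were at least 2-fold lower. Taken by line, 93 members were at least 2-fold higher in both ISH1&2 and ISH2, 84 in ISH1&2 and not in ISH2, 16 in ISH2 and not in ISH1&2, and 18 in neither. The response was larger in ISH1&2 than in ISH2 for 153 members. In control the median signal was 2.52, 2.39 and 2.41 with estradiol, against 2.38, 2.45 and 2.31 without it.

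The member with the largest response was AT3G28510, which encodes an AAA-type ATPase. Its signal was 830.1, 819 and 965 in ISH1 with estradiol, against 5.74, 5.39 and 4.2 without it, a 172-fold difference (log2 7.42 ± 0.16, SE, n = 3 and 3 arrays). The same probe read 40.02, 27.4 and 19.9 in ISH1&2 with estradiol, against 3.79, 3.81 and 4.32 without it, and 38.2, 39.4 and 47.7 in ISH2 with estradiol, against 6.16, 6.11 and 6.14 without it. All arrays of the inducible lines with estradiol were thus above those without it. The ISH1 arrays with estradiol stood far above the rest, which the choice of the genes favours. AT1G52130, a mannose-binding lectin of the jacalin type, was at 92.9, 94.5 and 96.3 in ISH1 with estradiol, against 1.03, 0.826 and 0.418 without it, or 134-fold (log2 7.06 ± 0.39). Its response was 3.91-fold in ISH1&2 and 2.65-fold in ISH2. AT1G58225 reached 107.6-fold, with 49.2, 42.5 and 44.2 with estradiol in ISH1, against 0.816, 0.313 and 0.291 without it. The highest of these values without estradiol came from replicate 1 for each of these 3 genes, which is the array with the largest share of bright probes.

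Receptor-like proteins (RLP) and receptor-like kinases sit in the plasma membrane and bind ligands from outside the cell. Of 40 RLP genes bright in ISH1, 4 were members, or 10%, against 0.826% of all bright genes. The neighbouring genes RLP38 and RLP37 led this group. RLP38 was at 167, 114 and 107.4 in ISH1 with estradiol, against 1.61, 1.31 and 1.03 without it, a 98.1-fold difference, and its response was 8.54-fold in ISH1&2 and 1.82-fold in ISH2. RLP37 was at 25.6, 18.6 and 19.9 in ISH1 with estradiol, against 1.16, 0.513 and 0.718 without it, or 28.1-fold. The 2 groups of ISH1 arrays did not overlap for either gene, which held for every member and follows largely from the choice of the genes. RLP7 reached 14.9-fold in ISH1 and, unlike the other 3, was closer to that value in ISH2 (7.48-fold) than in ISH1&2 (2.74-fold). RLP42, the receptor of fungal endopolygalacturonases, lay near the threshold at 10.75-fold in ISH1, and at 3.49-fold in ISH1&2 and 1.16-fold in ISH2.

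The cysteine-rich receptor-like kinases (CRK) form a large, partly tandem family. By symbol 4 of 23 bright CRK genes were members, or 17.4%, and a further gene was assigned by its description. CRK4 had the largest response of them, with 49.8, 33.8 and 30.5 in ISH1 with estradiol, against 1.37, 0.642 and 0.907 without it, or 40.1-fold. CRK40, CRK36 and CRK10 reached 26.0-fold, 22.6-fold and 12.5-fold in ISH1, and 2.01-fold, 3.35-fold and 4.99-fold in ISH1&2. Among the other kinases, RLK1 was at 140.1, 130.5 and 147 in ISH1 with estradiol, against 2.18, 2.66 and 2.25 without it, a 59.1-fold difference. The kinase genes AT4G17660, AT3G47090 and AT1G72540 reached 36.5-fold, 17.6-fold and 12.7-fold in ISH1. All 7 genes of this group were at least 2-fold higher in ISH1&2, and 2 of the 7 in ISH2. One of those 2 was AT5G65600, a kinase with a lectin domain, with 69.6, 80.1 and 78.5 in ISH2 with estradiol, against 7.89, 7.21 and 8.04 without it. Its 10.1-fold response in ISH1 and its 9.86-fold response in ISH2 differed by less than the errors of the 2 values (log2 3.34 ± 0.05 in ISH1 and 3.301 ± 0.08 in ISH2), so the 2 responses lay on either side of the threshold without differing beyond their spread.

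Intracellular receptors and TIR-domain proteins stood under 10 of the names. AT1G72900, which encodes a TIR-domain protein, was at 297, 277 and 302 in ISH1 with estradiol, against 11, 10.2 and 10.6 without it, or 27.6-fold. Its neighbour AT1G72910 was at 25.3, 20.1 and 18.4 in ISH1 with estradiol, against 0.813, 0.357 and 0.219 without it, or 52.8-fold. In ISH2 the arrays of AT1G72910 with estradiol were not well above background, which gives a difference of at least 1.21-fold lower with estradiol. AT1G72920 lies next to these and reached 11.5-fold in ISH1 and 5.63-fold in ISH1&2. AT5G41750 and AT4G19520, of the TIR-NBS-LRR type, reached 30.7-fold and 19.98-fold in ISH1, and 5.62-fold and 4.80-fold in ISH1&2. HR4, a homologue of the powdery mildew resistance protein RPW8, was among the members closest between the 2 lines, with 10.3-fold in ISH1 and 8.82-fold in ISH1&2. HR4 was at 68.2, 61.8 and 54.2 in ISH1 with estradiol and 37.6, 43.2 and 37.7 in ISH1&2 with estradiol, and its response in ISH2 was 1.09-fold. Of the 10 names, 9 were at least 2-fold higher in ISH1&2 and 4 in ISH2. Since neighbouring TIR genes are similar in sequence, their probes may read each other's transcripts.

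WRKY transcription factors bind W boxes in promoters of defence genes. Of 63 WRKY genes bright in ISH1, 10 were members, or 15.9%, against 0.826% of all bright genes, and 2 more reached 10-fold in ISH1 and elsewhere. Of the 13 WRKY genes of group III, a plant group with an altered zinc finger, 9 were bright and 6 were members, namely WRKY30, WRKY38, WRKY46, WRKY54, WRKY70 and ABO3, also known as WRKY63. WRKY46, an early gene of the salicylic acid response, was at 268, 237 and 276 in ISH1 with estradiol, against 6.51, 7.26 and 5.71 without it, a 40.1-fold difference (log2 5.33 ± 0.12). WRKY46 was at 49.4, 54.6 and 54.6 in ISH1&2 with estradiol, against 5.58, 7.86 and 7.96 without it, and at 12.8, 9.27 and 10.8 in ISH2 with estradiol, against 7.80, 7.94 and 6.49 without it. The arrays with estradiol lay above those without it in each of the 3 lines, in the order ISH1, ISH1&2, ISH2, with no overlap between the lines. That ISH1 stood highest follows largely from the choice of the genes.

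WRKY70, which acts between salicylic acid and jasmonic acid signalling, was at 1185, 1108 and 1138 in ISH1 with estradiol, against 50.9, 47.9 and 46.2 without it, or 23.7-fold, and its response was 4.81-fold in ISH1&2 and 3.78-fold in ISH2. WRKY54, its closest relative, reached 10.4-fold in ISH1, with 93.3, 99.1 and 109 with estradiol, against 9.82, 9.16 and 9.84 without it. Unlike WRKY70, WRKY54 had lower signals with estradiol in the other lines. They were 8.2, 6.12 and 5.67 in ISH1&2 with estradiol, against 9.10, 9.43 and 9.66 without it, and 3.83, 4.36 and 4.62 in ISH2 with estradiol, against 8.96, 9.93 and 11.2 without it. WRKY54 was the only 1 of the 10 WRKY members below 0 on the log2 scale in ISH1&2, at −0.51, where the other 9 lay between 1.81 and 2.91.

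WRKY38, a repressor of basal defence, reached 46.5-fold in ISH1 and 5.64-fold in ISH1&2. WRKY50 and WRKY51, which take part in the repression of jasmonic acid signalling by salicylic acid, reached 27.7-fold and 33.8-fold in ISH1. WRKY51 was at 219, 218 and 232 in ISH1 with estradiol, against 6.47, 6.68 and 6.61 without it. WRKY50 was at 44.5, 36.4 and 40.6 in ISH1 with estradiol, against 3.53, 0.970 and 0.902 without it, and replicate 1 was the highest of the 3 arrays without estradiol. ABO3, which takes part in abscisic acid signalling, reached 29.4-fold in ISH1. WRKY40, a repressor that acts with WRKY18 and WRKY60, reached 14.4-fold, and WRKY30 reached 15.1-fold. WRKY59 was at 36.8, 33.5 and 36 in ISH1 with estradiol, against 0.890, 0.410 and 0.328 without it, or 71.9-fold, the largest value among the WRKY members. In ISH2 the WRKY59 arrays with estradiol were not well above background, which gives at least 1.65-fold lower with estradiol.

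**Figure D2:**
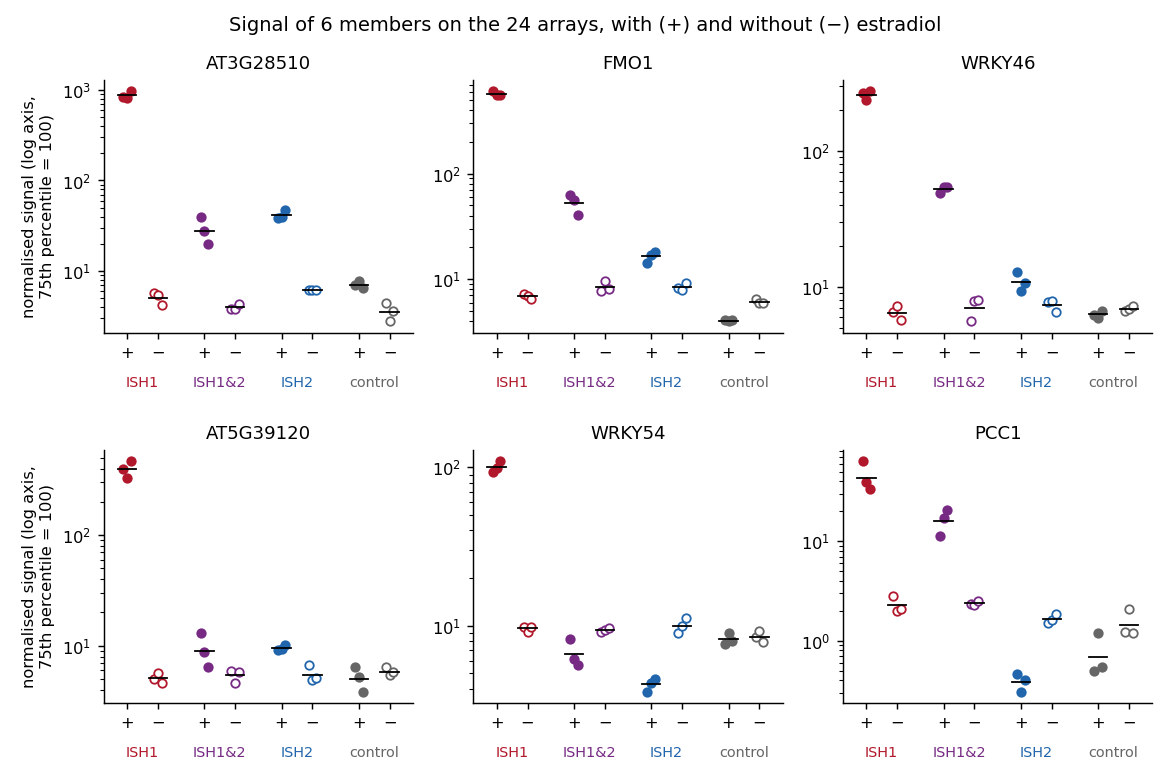
Normalised signal (log axis, 75th percentile of each array at 100) of 6 members on the 24 arrays, with filled points for arrays with estradiol, open points for arrays without it and bars for the geometric mean of 3 arrays. AT3G28510, FMO1 and WRKY46 were raised in ISH1&2 to an intermediate level, the germin-like gene AT5G39120 stayed near its level without estradiol there, and WRKY54 and PCC1 were lower with estradiol in ISH2.

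The salicylic acid list held 32 tested genes, of which 6 were members, namely FMO1, NIMIN1, GRX480, PCC1, WRKY70 and WRKY54. This list and those below were written by hand with earlier results of these data known, so counts over them are a description. FMO1 makes N-hydroxypipecolic acid, the signal of systemic acquired resistance. It was at 605, 559.7 and 557 in ISH1 with estradiol, against 7.21, 6.93 and 6.53 without it, a difference of 83.3-fold (log2 6.38 ± 0.06). FMO1 was at 63.4, 56.6 and 40.6 in ISH1&2 with estradiol, against 7.73, 9.54 and 8.04 without it, or 6.26-fold. The ISH1 and the ISH1&2 arrays with estradiol did not overlap, and both stood above all arrays without it. The choice of the genes favours such a separation, and with estradiol 209 of the 211 members were lower in ISH1&2 than in ISH1. NIMIN1, which binds NPR1, was at 72.3, 62.5 and 64.1 in ISH1 with estradiol, against 5.16, 2.63 and 2.38 without it, or 20.8-fold. Its response was 3.57-fold in ISH1&2, and in ISH2 its signal with estradiol was 0.627 times that without it. GRX480, a glutaredoxin that binds TGA factors, was at 510.3, 572 and 594 in ISH1 with estradiol, against 25.9, 29.6 and 32.3 without it, or 19.1-fold, and it reached 5.45-fold in ISH1&2 and 5.09-fold in ISH2. PCC1, a gene that follows pathogens and the circadian clock, was at 63.3, 39.2 and 33.2 in ISH1 with estradiol, against 2.84, 1.99 and 2.07 without it. In ISH2 PCC1 was at 0.463, 0.307 and 0.403 with estradiol, against 1.52, 1.63 and 1.86 without it, so the direction in ISH2 was opposite to that in ISH1.

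Of the 26 other genes of this list, 23 rose and 1 fell in ISH1 (limma, adjusted p below 0.05 over 27812 genes, where 26.3% of all genes rose and 36.4% fell). PBS3 and ALD1, enzymes of salicylic acid and pipecolic acid synthesis, and PR1 and BGL2, which encodes the β-1,3-glucanase PR2, had the largest responses. They are not members because they also reached 10-fold in ISH1&2 or were not bright on all 6 ISH1 arrays. PBS3 was at 1596, 1485 and 1583 in ISH1 with estradiol, against 5.75, 0.859 and 0.545 without it, and at 143, 175 and 133 in ISH1&2 with estradiol, against 0.320, 1.13 and 3.58 without it. The difference in response between ISH1&2 and ISH1 was −3.03 for PBS3 (adjusted p = 0.0183) and −2.72 for ALD1 (adjusted p = 3.04e-06) on the log2 scale. For PR1 and BGL2 this difference was −0.69 and −1.56 and did not pass (adjusted p = 0.55 and 0.31). Without estradiol both were well above background on 1 of 3 ISH1 arrays and 0 of 3 ISH1&2 arrays, so these differences rest on signals near background. Both were tested only through the ISH1 and ISH1&2 arrays with estradiol, where they were high. PBS3, ALD1, PR1 and BGL2 were named for a large ISH1 response, which draws the difference towards negative values.

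Pattern-triggered immunity begins at receptors such as FLS2, and its list held 32 tested genes with 1 member, RLP42. Of the 31 others, 29 rose in ISH1, 18 rose and 5 fell in ISH1&2, where 31.6% of all genes rose and 33% fell, and 21 rose in ISH2, where 27.3% did. RLP23 is among the 29, but it was well above background on all 3 arrays only in ISH1 with estradiol. It was tested only through that group, where it was high, so its rise adds no support. CYP81F2, which hydroxylates indole glucosinolates, PROPEP3, the precursor of a danger peptide, and the kinase gene FRK1 were among those that rose most in ISH1. The difference in response between ISH1&2 and ISH1 was −2.88 for CYP81F2, −2.23 for PROPEP3 and −0.876 for FRK1 on the log2 scale. Naming them for a large ISH1 response draws this difference towards negative values. FLS2, named here after its values were seen, was an exception: it was at 9.15, 8.44 and 7.59 in ISH1 with estradiol, against 4.56, 3.57 and 3.40 without it, but at 19.7, 20.4 and 23.4 in ISH1&2 with estradiol, against 2.60, 2.90 and 2.77 without it. Over the 89 list genes that are not members, the signed log2 response in ISH1&2 was lower than that in ISH1 for 64 and higher for 3. The 3 were ICS2, FLS2 and MYB34, and of all genes 22.9% were lower and 23.5% higher. This difference lies within slides. Because the lists were written with earlier results of these data known, these counts are a description and not an independent test.

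Camalexin and indole glucosinolate genes held 16 tested genes with 3 members, PAD3, IGMT2 and GSTU4. PAD3, which catalyses the last step of camalexin synthesis, was at 702, 585 and 602 in ISH1 with estradiol, against 50.3, 53.5 and 51 without it, or 12.2-fold. PAD3 was at 363, 331 and 405 in ISH2 with estradiol, against 79.1, 67.3 and 77.8 without it, and at 146, 118 and 99.1 in ISH1&2 with estradiol, against 55.7, 71.7 and 65.9 without it. Its response was thus larger in ISH2, at 4.90-fold, than in ISH1&2, at 1.86-fold. IGMT2, a methyltransferase of indole glucosinolates, reached 12.4-fold in ISH1, 4.21-fold in ISH1&2 and 4.40-fold in ISH2. GSTU4, a glutathione S-transferase, reached 22.0-fold in ISH1, 8.65-fold in ISH1&2 and 6.58-fold in ISH2. Of the 13 other genes of this list, 10 rose and 2 fell in ISH1, 8 rose and 4 fell in ISH1&2, and 9 rose and 2 fell in ISH2, where 21.9% of all genes fell. CYP71A13, CYP71A12 and CYP82C2, cytochromes P450 of camalexin and related indole compounds, had the largest responses in ISH1 of these 13 genes, followed by GSTF6, which supplies glutathione in camalexin synthesis. With estradiol CYP71A13 was higher in ISH2, at 267, 268.5 and 361, than in ISH1, at 117, 109 and 122.5. The same held for CYP71A12, at 518, 515 and 643 in ISH2 and 367, 401 and 411.5 in ISH1. CYP82C2 was at 118, 127 and 122 in ISH2 with estradiol, against 314, 377 and 288 in ISH1. Without estradiol CYP71A13 and CYP82C2 were well above background on only 1 of 3 ISH1 arrays.

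The unfolded protein response restores folding in the endoplasmic reticulum, and its list held 21 tested genes with 2 members. BIP3, an Hsp70 chaperone of the endoplasmic reticulum that appears under stress, was at 17.4, 12 and 12.5 in ISH1 with estradiol, against 4.19, 0.470 and 0.520 without it. Its mean difference of 13.7-fold had a large error (log2 3.77 ± 1.04) because replicate 1 without estradiol read far above the other 2 arrays. NAC103, a transcription factor of this response, was at 36.1, 35.7 and 41.4 in ISH1 with estradiol, against 4.78, 3.15 and 3.19 without it, or 10.4-fold, and its response was 5.596-fold in ISH1&2. Of the 19 other genes of the list, 12 rose and 1 fell in ISH1, and 12 rose and 1 fell in ISH2 as well. In ISH1&2 5 rose and 2 fell, where 31.6% of all genes rose, and in control 6 rose and 1 fell, where 7.14% of all genes rose. Relative to control, 8 of the 19 rose in ISH1, where 20.4% of all genes did. BZIP60, NAC089, ERO1 and CRT3 had the largest responses in ISH1 among them, between 0.81 and 1.44 on the log2 scale.

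**Figure D3:**
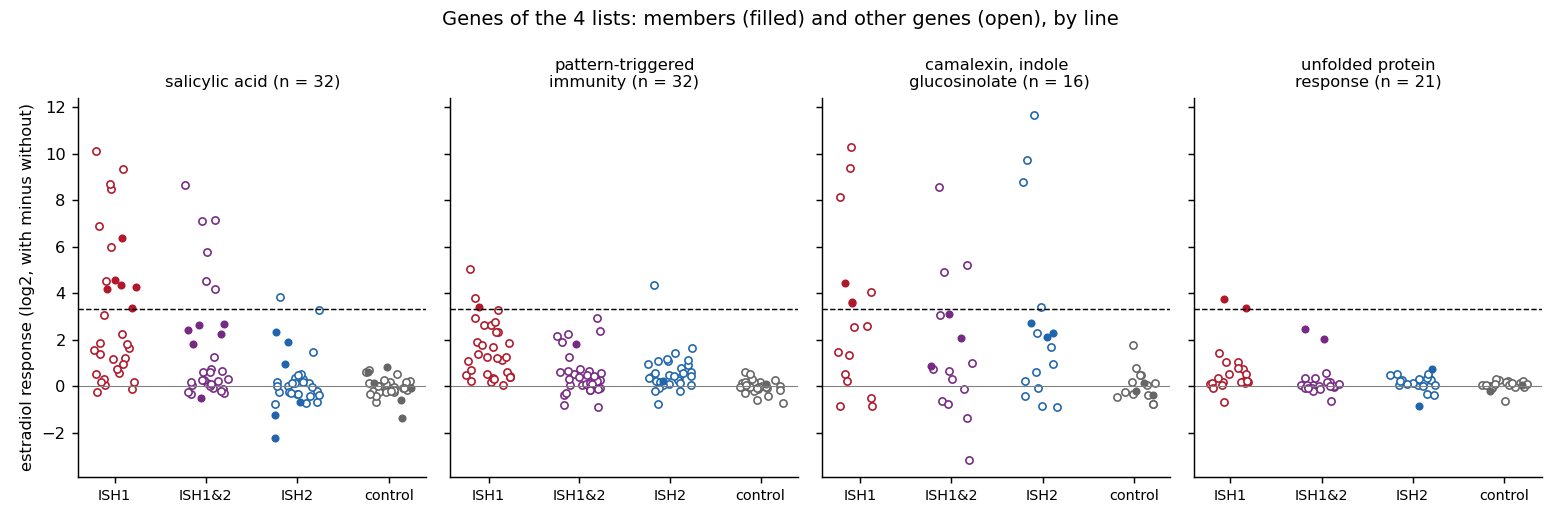
Response to estradiol (log2) of the tested genes of 4 gene lists in ISH1, ISH1&2, ISH2 and control, with members filled and other genes open, and 10-fold as a dashed line. The lists held 6, 1, 3 and 2 members, and open points above the line in ISH1 are genes that also reached 10-fold elsewhere or were not bright on all 6 ISH1 arrays.

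Enzymes of detoxification and secondary metabolism were a further group. By symbol 9 of 177 bright cytochrome P450 genes were members (5.08%), 4 of 46 glutathione S-transferase genes (8.70%) and 4 of 53 UDP-glycosyltransferase genes (7.55%). CYP81D8 was at 413, 436 and 461 in ISH1 with estradiol, against 11, 10.01 and 10.4 without it, or 41.7-fold, and it reached 8.84-fold in ISH1&2 and 6.18-fold in ISH2. CYP706A1, CYP72A9 and CYP72A8 reached 28.0-fold, 21.3-fold and 15.3-fold in ISH1. GSTU11 was at 256, 203 and 167 in ISH1 with estradiol, against 3.78, 2.75 and 2.81 without it, or 66.8-fold, and its neighbour GSTU12 reached 47.1-fold. These glutathione S-transferases responded strongly in ISH1&2 as well, at 8.86-fold for GSTU11 and 3.92-fold for GSTU12. The glycosyltransferases UGT73C7, UGT71B6, which glycosylates abscisic acid, UGT75B1 and UGT73D1 reached 12.1-fold to 18.1-fold in ISH1. All 4 had a response of at least 2-fold in ISH2, and 3 of the 4 were higher there than in ISH1&2, UGT71B6 being the exception. PXMT1, a methyltransferase of purine-like compounds, was at 373, 490.2 and 493 in ISH2 with estradiol, against 51.1, 47.7 and 50.9 without it, or 8.99-fold. In ISH1 PXMT1 reached 11.6-fold and in ISH1&2 only 1.59-fold.

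Calcium signals, transport and transcription were represented as well. TCH3, a calmodulin-like protein induced by touch, was at 2696, 2735 and 2522 in ISH1 with estradiol, against 169.7, 174 and 156 without it, or 15.9-fold. CML37 reached 27.9-fold in ISH1, and the EF-hand genes AT3G01830 and AT5G39670 reached 25.7-fold and 24.5-fold. All 4 of these calcium-binding genes were at least 2-fold higher in both other lines. Among 6 transporters, ABCG21 was at 176, 165 and 155 in ISH1 with estradiol, against 6.64, 4.73 and 5.79 without it, and its response of 29.1-fold in ISH1 stood beside 9.45-fold in ISH1&2 and 1.78-fold in ISH2. Of 9 MYB, NAC, ERF and bHLH factors, AT5G56960, NAC004, HEC3 and MYB108 had the largest responses in ISH1, between 13.2-fold and 19.5-fold. HEC3 takes part in carpel development, and MYB108 in the response to necrotrophic fungi. The 3 secretory peroxidases AT3G03670, PER4 and AT5G39580 reached 32.7-fold, 13.7-fold and 12.2-fold in ISH1, and 2.38-fold, 2.40-fold and 1.18-fold in ISH1&2.

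The germin-like proteins, cupin proteins of the cell wall, differed from the other families in ISH1&2. Their median response was 5.07 in ISH1, 0.32 in ISH1&2 and 1.14 in ISH2 on the log2 scale, against 4.12, 2.18 and 1.04 for all members. None of the 6 was at least 2-fold higher in ISH1&2, where 177 of the 211 members were. AT5G39120 was at 396, 329 and 465 in ISH1 with estradiol, against 4.99, 5.70 and 4.62 without it, or 77.3-fold. In ISH1&2 AT5G39120 was at 13.2, 8.77 and 6.41 with estradiol, against 5.93, 4.65 and 5.81 without it, or 1.67-fold. AT5G39180 was at 1636, 1120 and 1516 in ISH1 with estradiol, against 26.8, 33.2 and 27.9 without it, whereas in ISH1&2 it was at 57.5, 37.2 and 23.5 with estradiol, against 31.6, 21.9 and 30.2 without it, so that the 2 groups overlapped.

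AT5G39110 showed the same pattern, with 45.6-fold in ISH1 and 1.17-fold in ISH1&2. AT5G39160 and AT5G39130 reached 14.8-fold and 12.6-fold in ISH1, but in ISH1&2 their signals with estradiol were 0.722 and 0.735 times those without it. GLP6, which also belongs to this family, reached 24.7-fold in ISH1, 1.68-fold in ISH1&2 and 6.76-fold in ISH2. The 5 genes AT5G39110 to AT5G39180 lie on chromosome 5 within a tandem array, and tandem copies of this kind may share reads of a probe, so they are not independent examples. GLP6 stands under an accession and was not placed in the genome here, so it is not shown to be a separate example either.

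**Figure D4:**
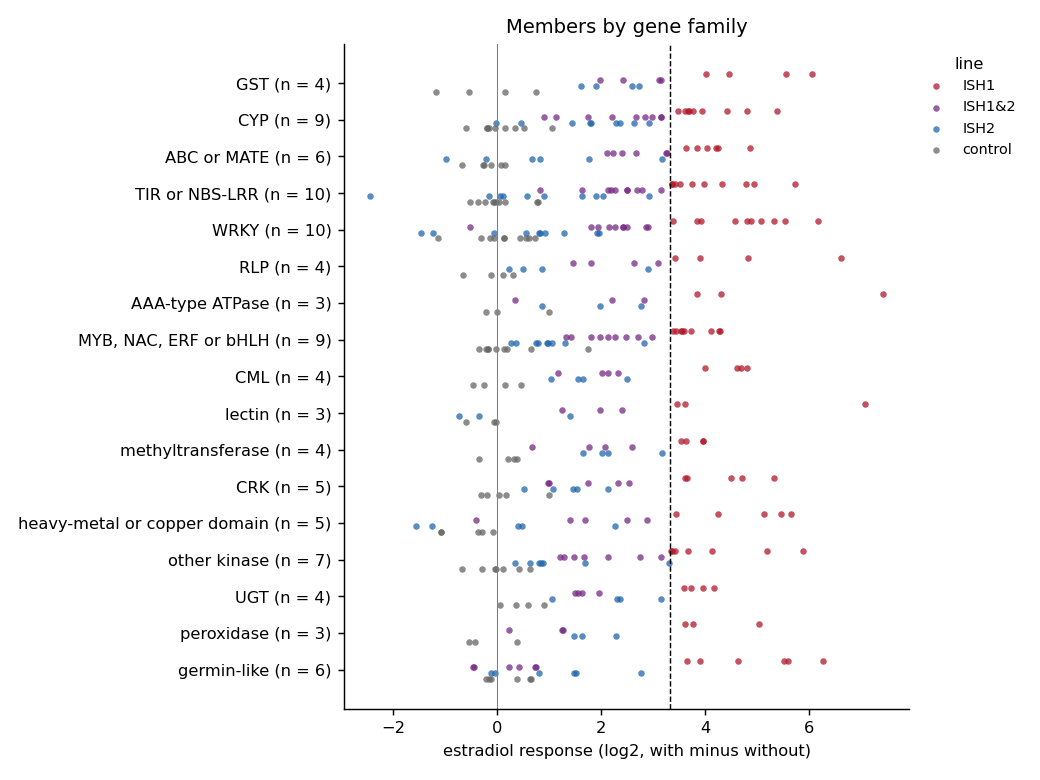
Response to estradiol (log2) of the members of each gene family with 3 or more members in ISH1, ISH1&2, ISH2 and control, ordered by the median in ISH1&2. Each point is a gene and the dashed line is 10-fold. The 6 germin-like genes lay below 1 on the log2 scale in ISH1&2, while most members of the other families lay above it.

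The members with the highest and the lowest response in ISH1&2 show how far this line varied. MIF3, a mini zinc finger protein related to the zinc finger homeodomain proteins, was at 41.3, 37.5 and 28.4 in ISH1 with estradiol, against 3.12, 3.47 and 2.88 without it, and at 45.0, 45.9 and 38.3 in ISH1&2 with estradiol, against 3.67, 4.54 and 4.76 without it. Its response of 9.99-fold in ISH1&2 and that of 11.23-fold in ISH1 differed by less than the larger of their errors (log2 3.32 ± 0.14 and 3.49 ± 0.18). AT2G36325, AT3G21080, AT2G41445 and ABCG21 followed, between 9.45-fold and 9.85-fold in ISH1&2. At the other end AT5G44973, a defensin-like gene, had a response of −1.13 ± 0.72 on the log2 scale in ISH1&2, which rests on 1 array. It was at 1.19, 1.55 and 1.12 in ISH1&2 with estradiol, against 1.45, 2.04 and 7.26 without it. AT5G52710, named for a copper transport domain, was at 1.15, 0.657 and 0.634 in ISH1&2 with estradiol, against 0.930, 1.15 and 1.04 without it, and at 29.5, 20.1 and 20.7 in ISH1 with estradiol, against 0.978, 1.39 and 1.31 without it. In ISH2 AT5G52710 was not well above background with estradiol, which gives at least 2.80-fold lower.

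Near the threshold the separation is thin. The members just inside were 5PTASE11, AT5G65600 and AT5G07570, each at 10.1-fold, and the genes just outside were AT3G63380 at 9.93-fold, GolS2 at 9.90-fold and a gene known only by an accession at 9.98-fold. AT5G07570 was at 102, 159 and 138 in ISH1&2 with estradiol, against 13.7, 15.0 and 14.2 without it, or 9.15-fold, so it lay near the threshold in both lines.

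Position in the genome was not used to choose the genes. Of the 180 members placed on chromosomes 1 to 5, 39 had another member within 3 gene positions, in 16 clusters. Of the 164 placed genes that also reached 10-fold elsewhere, 35 had a neighbour of their own set within 3 positions. The share for all bright genes was not counted, so these counts are a description and not a trait particular to the members. The clusters of 3 or more held 17 members and lay on chromosomes 1 and 5. The largest ran through AT5G22520, AT5G22530, AT5G22540, AT5G22555 and WRKY38, with responses of 36.4-fold, 22.4-fold, 46.1-fold, 32.6-fold and 46.5-fold in ISH1. In ISH1&2 4 of these 5 were 3.24-fold to 5.70-fold higher with estradiol, whereas AT5G22555 was at 9.79, 6.14 and 4.90 with estradiol, against 6.88, 6.15 and 7.80 without it. AT5G22555 did respond in ISH2, at 43.2, 45.5 and 50.9 with estradiol, against 7.80, 7.85 and 9.35 without it, so neighbours within a cluster differed between lines. AT1G13490, AT1G13520 and AT1G13550 formed a cluster in which the response in ISH2, at 9.53-fold, 6.55-fold and 2.61-fold, was above that in ISH1&2, at 2.49-fold, 1.88-fold and 2.58-fold. AT5G52710, AT5G52720 and AT5G52750, of the heavy-metal domain family, reached 19.05-fold, 43.9-fold and 10.8-fold in ISH1. Of the same family but elsewhere in the genome, AT5G26690 and AT1G29100 reached 49.96-fold and 34.9-fold in ISH1, and in ISH2 AT1G29100 had 0.419 times its signal without estradiol.

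**Figure D5:**
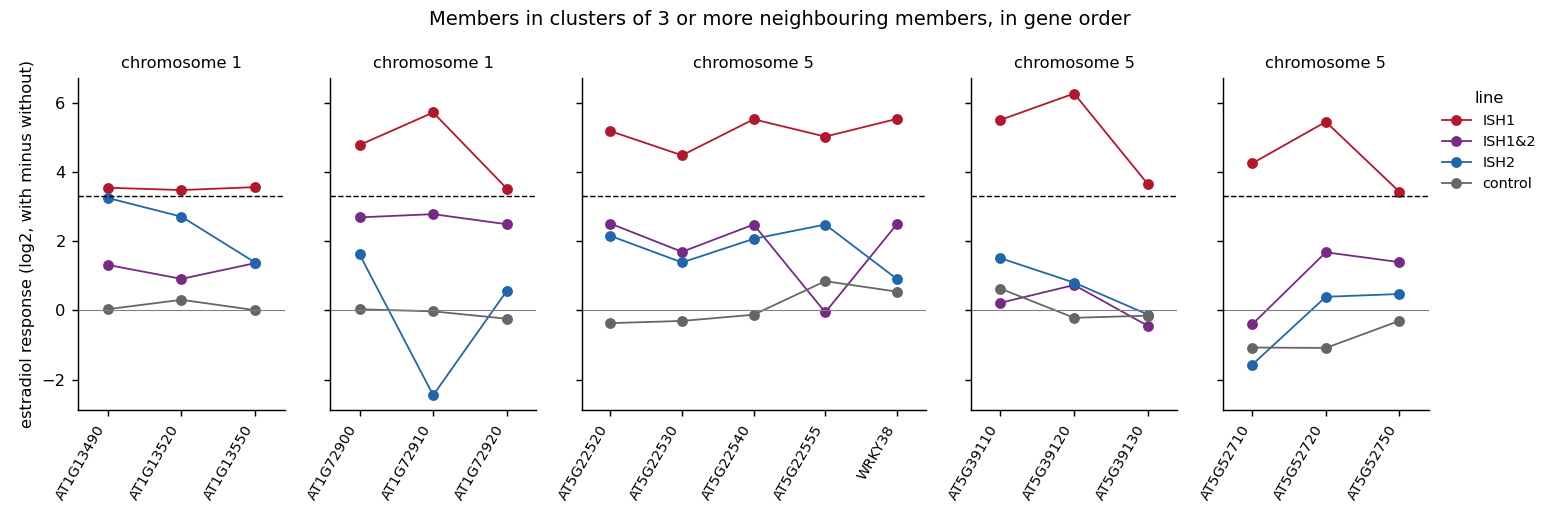
Response to estradiol (log2) in ISH1, ISH1&2, ISH2 and control of the members in the 5 clusters of 3 or more neighbouring members, in gene order, with lines joining the genes of a cluster and 10-fold as a dashed line. AT5G22555 lay near 0 in ISH1&2 and at 2.48 in ISH2, and the 3 germin-like genes AT5G39110, AT5G39120 and AT5G39130 lay below 1 in ISH1&2.

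The response of control plants to estradiol is the only one that the choice of the genes did not use. In control, 31 of the 211 members rose and 23 fell (limma, adjusted p below 0.05), or 14.7% and 10.9%, where 7.14% of all genes tested rose and 7.86% fell. The sizes were small. The median control response was −0.01 on the log2 scale for the members and −0.002 for all genes tested, 194 members lay within 2-fold, 7 were at least 2-fold higher, where 0.881% of all genes were, and 10 were at least 2-fold lower. Of the members called, 4 had risen and 9 had fallen by 2-fold or more. The shares of all genes that were at least 2-fold lower, or called with a change of 2-fold or more, were not counted. For 180 of the 211 members all 6 control arrays were well above background, and these held 29 of the 31 that rose and 20 of the 23 that fell. For 2 control arrays a description field contradicts the title, and the title was followed. Without these 2 arrays 13 members rose and 12 fell, where 2.88% of all genes rose and 3.08% fell. With normexp background correction 22 members rose and 2 fell, where 3.85% of all genes rose and 3.14% fell. The median control response of the members was then 0.621. Of the 180 genes that also reached 10-fold elsewhere, 22 rose and 8 fell in control.

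Among the WRKY members WRKY38, WRKY51, ABO3 and WRKY70 rose in control and WRKY30 fell. WRKY70 was at 68.2, 60.7 and 86.3 in control with estradiol, against 43.2, 50.1 and 46.4 without it (log2 0.61, adjusted p = 0.00151). FMO1 fell, with 4.09, 3.98 and 4.08 with estradiol, against 6.46, 5.94 and 5.88 without it (log2 −0.59, adjusted p = 0.00428), and GRX480 rose, with 46.4, 39.0 and 38.7 with estradiol, against 23.6, 23.2 and 23.2 without it. AT3G28510, the member with the largest response in ISH1, also rose, with 7.07, 7.75 and 6.52 with estradiol, against 4.46, 2.79 and 3.63 without it (adjusted p = 0.00268). For each of these genes the 3 control arrays with estradiol did not overlap with the 3 without it.

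Among the members with the largest changes that passed the test in control, BHLH92, a transcription factor of the salt response, rose, and DIR5, GSTF12 and PCC1 fell. BHLH92 was at 0.565, 1.29 and 1.51 in control with estradiol, against 0.286, 0.230 and 0.436 without it (log2 1.75, adjusted p = 0.0148), with only 1 of the 3 arrays without estradiol well above background. DIR5, a dirigent-like protein, was at 4.86, 2.04 and 1.73 in control with estradiol, against 6.43, 7.32 and 8.43 without it (log2 −1.51, adjusted p = 0.012). DIR5 was also lower in ISH2 with estradiol, at 7.55, 8.58 and 11.3, against 32.8, 24.3 and 24.5 without it. In ISH1 DIR5 reached 17.9-fold in the other direction. GSTF12, a glutathione S-transferase needed for anthocyanin accumulation, fell by 1.46 on the log2 scale in control (adjusted p = 0.0239), and PCC1 fell by 1.34 (adjusted p = 0.00684), on the probe used for the test. AT2G04515 was also lower by the test, but its 3 control arrays with estradiol and 2 of the 3 without it were not well above background, so that no fold is given. The calls of BHLH92 and DIR5 were lost without control replicate 2 or replicate 3 with estradiol, and that of BHLH92 also without replicate 2 without estradiol. The call of GSTF12 was lost without control replicate 1 or 2 with estradiol and without replicate 1 or 3 without it, and with normexp PCC1 turned to 0.116.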

How the data were processed

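Total RNA of roots was measured on 24 Agilent 1-colour arrays, 3 per group. The authors deposited the processed signal of each probe, an intensity corrected for background by the Feature Extraction software, and a table of log2 values that they had shifted to the 75th percentile of each array and centred per probe. Per array the deposited log2 values correlated at 0.9999 or more with values computed here in that way.

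Spots marked as uneven or outlying or by hand (346) were left out, 0 were saturated, and log2 of the intensity minus the 75th percentile of the array was taken. Of 43603 probes, 34348 matched a locus of the reference table. Signals are given with the 75th percentile at 100. For tests, a probe had to exceed its background clearly on each array of some group, which left 36569 probes, and the brightest probe stood for its gene (27812 genes). The set was chosen on the probe that met the rule, which was the tested probe for 189 members. limma 3.58.1 in R 4.3.3 was fitted to all 24 arrays in 8 groups without a block, with two-sided tests and Benjamini-Hochberg adjustment. A bound is given where every array of a group was too close to background. On simulated data for the control response (27659 genes), 86% of 2-fold and 96% of 4-fold changes were called, and 5.7% of the calls were false. The simulated arrays held no slide effect, so these shares do not give the error of the real control calls, which compare slides. The number of arrays limits the precision.

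The members, gene lists, families and tests were chosen with earlier results of these data known. Members were named by a rule on the size of the response, the family, the cluster or the list, and the lists were written by hand. CRT1 was dropped from a list because the reference table gives this symbol to another gene. Alternatives were quantile and normexp normalisation, a pseudocount of 16, a floor (added after seeing the data), the deposited log2 values, filters on dim probes, a replicate or slide block, a variance trend, a 2-fold minimum, each line alone, the response relative to control and the omission of arrays. Promoter and protein sequences were not analysed here.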

Additional observations from a re-analysis of the deposited data

Results flagged for a closer look

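Of the 89 list genes that are not members, 64 had a lower and 3 a higher signed log2 response to estradiol in ISH1&2 than in ISH1 (limma's test of the difference itself, adjusted over 27812 genes). The 3 were FLS2, ICS2 and MYB34, named after their values were seen, with log2 differences of 1.80, 0.57 and 0.20. MYB34 fell in both lines, by less in ISH1&2 (log2 −0.63) than in ISH1 (−0.83). CYP79B3, counted as lower, fell further in ISH1&2 (−1.35) than in ISH1 (−0.51). Values follow for the 12 that passed among the genes named for the 4 largest ISH1 responses of each list. Picking genes for a large ISH1 response draws this difference towards negative values, and the adjusted p-values do not allow for that. The lists were also written with earlier results of these data known, so the counts of 64 and 3 are a description. The log2 differences were −3.03 for PBS3 and −2.72 for ALD1 among the salicylic acid genes. Among the pattern-triggered immunity genes they were −2.88 for CYP81F2 (adjusted p = 1.01e-07), −2.23 for PROPEP3 (adjusted p = 1.21e-08) and −0.876 for FRK1 (adjusted p = 0.00619). Among the camalexin genes they were −4.17 for CYP71A13 (adjusted p = 0.0167), −3.19 for CYP71A12 (adjusted p = 0.000725) and −0.975 for GSTF6 (adjusted p = 0.000415). Among the unfolded protein response genes they were −1.27 for BZIP60, −0.652 for NAC089, −1.08 for ERO1 and −0.421 for CRT3, with adjusted p between 1.49e-09 and 0.000849. CYP71A13 and PBS3 were dim without estradiol, with 0.102, 0.136 and 0.497 for CYP71A13 and 0.320, 1.13 and 3.58 for PBS3 in ISH1&2. For RLP23 and CYP82C2, the differences of −2.54 and −1.70 did not pass (adjusted p = 0.10 for both). RLP23 was well above background on all 3 arrays only in ISH1 with estradiol, and CYP82C2 only in the inducible lines with estradiol.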

How the results depend on the processing

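The member count was 321 when brightness was asked for in only 1 of the ISH1 groups, and it lay between 170 and 251 under the other alternatives, with 199 to 251 when 1 array was left out. The 170 of normexp background correction shared 131 genes with the set of 211. With normexp the median response of the members was 3.53 in ISH1, 1.61 in ISH1&2, 0.705 in ISH2 and 0.621 in control, while the median of all genes in control was 0.119. With a pseudocount of 16 the median in ISH2 was 0.911. When 1 array was left out, the medians ranged from 3.97 to 4.29 in ISH1, 2.07 to 2.27 in ISH1&2, 0.99 to 1.07 in ISH2 and −0.03 to 0.008 in control. The cause of the shift under normexp was not tested.

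In control, the members that rose numbered 4 with a 2-fold minimum, 13 without the 2 arrays with contradictory descriptions, and 17 to 24 without 1 array. The lowest, 17, came without control replicate 2 with estradiol and also without control replicate 2 without estradiol, and without control replicate 3 without estradiol there were 19. The background moved as well: without 1 array 8.06% to 11.4% of the members rose, where 4.32% to 5.36% of all genes did. Those that fell numbered 2 with normexp, 9 with a 2-fold minimum, 12 without the 2 arrays, and 17 to 22 without 1 array. Without 1 array 8.06% to 10.4% of the members fell, where 4.73% to 5.85% of all genes did, and with normexp 3.14% of all genes fell. The share of all genes called with a 2-fold minimum was not counted. Under normexp AT2G04515 and PCC1 changed direction, at 0.621 and 0.116 on the log2 scale. Of the salicylic acid genes that are not members, 0 fell in ISH1 with normexp, 0 with a 2-fold minimum and 2 without the filter on dim probes. With a 2-fold minimum 19 pattern-triggered immunity genes and 3 unfolded protein response genes rose in ISH1, and 0 camalexin genes and 0 unfolded protein response genes fell. Relative to control, 1 camalexin gene and 0 unfolded protein response genes fell in ISH1.

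Replicate numbers did not pair the samples: same-numbered arrays correlated between −0.0356 and 0.099, with 0 of 12 pairs over 0.1. With a replicate block 32 members rose and 23 fell in control, and over all genes 2141 rose and 2369 fell, against 1987 and 2185 without it. With slide as a random block, 33 members rose and 23 fell, where 7.27% of all genes rose and 7.96% fell. Limits for the dim members are set by their signal over background, and 31 of the 211 were not well above background on all 6 control arrays.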
